A study of Homo sapiens with 8 samples.

Results

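The highest promoter peaks of ordinary width in the PML::RARA binding map were the 330 peaks, of 15412 in the deposited list, that carried a gene label, reached a height of 50 or more and were narrower than 2500 bp. Height is the largest signal within a peak. They were chosen by these measured values, so their height, width and total signal are given as a description only. They named 328 genes and made up 4.84% of the 6815 gene-labelled peaks under 2500 bp. The other 6485 peaks of that width and label, all under a height of 50, served as the comparison and are called the lower peaks.

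The list came from Cut&Run, in which an antibody guides a nuclease to cut DNA around a bound protein in isolated nuclei. The cells were U937-PR9, a monocytic line carrying a PML::RARA transgene behind a zinc-inducible promoter. The study made 8 libraries of this line, with 2 replicates each of an anti-PML-RARA and an anti-RARA antibody, in cells given 100 μM ZnSO4 for 5 h or given water. The list analysed here is that of the zinc-treated cells with the anti-PML-RARA antibody, and it gives each peak 1 value, not separate values for the replicates. Uninduced cells carried the same transgene, and no zinc-treated cells without it were among the samples, so zinc and the fusion protein cannot be told apart. No spread between replicates and no depth per library could be computed from this list, and no p-value is given. Intervals are 95% intervals that cover the counting of peaks only, and neighbouring peaks are not independent. Where a count is 0, the upper share given is 3 peaks of the total and not the bound of such an interval.

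PML::RARA is the fusion protein of acute promyelocytic leukemia. It joins the oligomerizing part of PML to the DNA-binding receptor RARA, which recognizes repeats of the AGGTCA type. Many promoters of broadly used genes lie in CpG islands and hold short elements near their start sites, such as GC boxes bound by SP and KLF factors and CCAAT boxes bound by NF-Y, a trimer with histone-like subunits.

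Among the motifs searched for, the CCAAT box was the one by which the high peaks differed most from the lower peaks. Printed first are the apex sequences of the 6 highest members with at least 2 boxes within 100 bp that could be shown outside UTRs. Each line gives 201 bases of the GRCh37/hg19 reference genome, 5′ to 3′ on the strand of the nearest start site, with the apex at base 101. CCAAT and its reverse complement ATTGG are in capitals.
NDUFA11, chr19:5904620-5904820, plus strand: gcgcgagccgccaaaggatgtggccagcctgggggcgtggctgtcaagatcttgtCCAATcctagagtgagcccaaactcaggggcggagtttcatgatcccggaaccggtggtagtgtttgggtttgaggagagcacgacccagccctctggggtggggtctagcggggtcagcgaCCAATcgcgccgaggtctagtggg
KHSRP, chr19:6424885-6425085, minus strand: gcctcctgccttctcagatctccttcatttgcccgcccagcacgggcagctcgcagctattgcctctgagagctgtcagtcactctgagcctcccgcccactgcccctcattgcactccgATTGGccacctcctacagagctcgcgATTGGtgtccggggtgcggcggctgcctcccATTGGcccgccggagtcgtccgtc
TOMM40, chr19:45394089-45394289, minus strand: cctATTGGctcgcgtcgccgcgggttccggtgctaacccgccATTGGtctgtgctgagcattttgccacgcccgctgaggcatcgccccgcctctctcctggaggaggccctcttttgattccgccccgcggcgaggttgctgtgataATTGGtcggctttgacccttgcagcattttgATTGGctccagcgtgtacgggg
MAP3K11, chr11:65382977-65383177, plus strand: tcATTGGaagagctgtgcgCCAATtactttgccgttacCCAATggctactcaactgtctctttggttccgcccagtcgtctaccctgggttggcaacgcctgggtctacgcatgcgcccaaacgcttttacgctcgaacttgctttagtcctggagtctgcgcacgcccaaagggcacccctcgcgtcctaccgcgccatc
SP1, chr12:53773684-53773884, plus strand: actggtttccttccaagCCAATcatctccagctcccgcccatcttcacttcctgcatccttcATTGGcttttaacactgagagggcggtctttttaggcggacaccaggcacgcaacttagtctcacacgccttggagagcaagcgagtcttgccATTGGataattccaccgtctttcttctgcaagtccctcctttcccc
OSBP, chr11:59383411-59383611, minus strand: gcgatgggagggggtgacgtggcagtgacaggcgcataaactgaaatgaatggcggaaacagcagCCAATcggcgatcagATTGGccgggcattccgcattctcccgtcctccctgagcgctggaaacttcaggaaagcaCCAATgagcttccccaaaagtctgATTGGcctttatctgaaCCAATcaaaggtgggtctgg
These windows held 2 boxes at NDUFA11, 3 at KHSRP, MAP3K11 and SP1, 4 at TOMM40 and 5 at OSBP. Windows of 2 of the highest members without a box within 200 bp are shown for contrast.
RUNX1, chr21:36423706-36423906, minus strand: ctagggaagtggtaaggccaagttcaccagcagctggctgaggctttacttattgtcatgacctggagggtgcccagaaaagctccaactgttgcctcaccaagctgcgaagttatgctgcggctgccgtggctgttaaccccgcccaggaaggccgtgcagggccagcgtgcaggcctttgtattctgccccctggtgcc
CDCA3, chr12:6961550-6961750, plus strand: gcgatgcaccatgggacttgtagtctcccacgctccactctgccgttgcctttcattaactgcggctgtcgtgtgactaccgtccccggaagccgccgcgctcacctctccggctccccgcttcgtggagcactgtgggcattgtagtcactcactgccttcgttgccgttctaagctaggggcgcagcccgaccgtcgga

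Heights of the 330 peaks ran from 50 to 85 with a median of 54, against 13 to 49 and a median of 25 in the lower peaks. The largest class, 168 peaks or 50.9%, lay at heights of 50 to 54. A further 95 lay at 55 to 59, 53 at 60 to 69 and 14 at 70 to 85. The limit cut through a continuous run of values, with 41 members at a height of 50 and 35 at 51, beside 35 lower peaks at 49 and 42 at 48. At the limit of width, EXOSC4 (2490 bp, height 52), CISH (2459 bp, height 53) and PRR14 (2445 bp, height 53) fell just inside. STK40 (2515 bp, height 66), RASSF2 (2518 bp, height 56) and RTN4 (2539 bp, height 54) fell just outside.

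**Figure D1:**
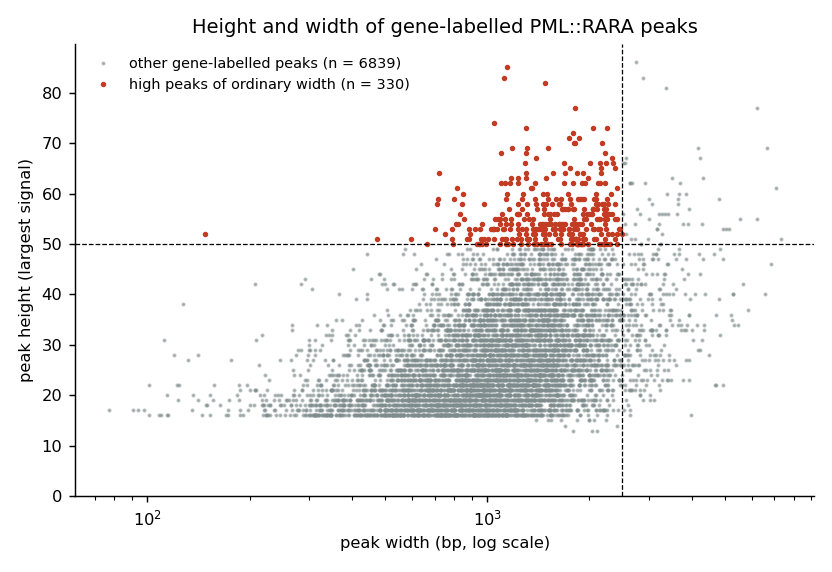
Height (largest signal, vertical axis) against width (bp, horizontal log axis) of the 7169 gene-labelled peaks, with dashed lines at the limits of height (50) and of width (2500 bp). The 330 high peaks of ordinary width (red) fill the upper middle field, and 59 labelled peaks as high lie to the right of the width limit.

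The high peaks had a median width of 1586.5 bp (148 to 2490) and the lower peaks 1050 bp. The median total signal, summed over the peak, was 25938 against 9322. Height and total signal did not pick the same peaks, since 165 of the 330 members were among the 330 labelled peaks under 2500 bp of greatest total signal. The mean signal was 30.1% of the height in the median member and 35.2% in the median lower peak. The narrowest member was the 148 bp peak of the pseudogene FAM86EP, of height 52 and total signal 3691.

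The highest peak was that of MDC1, a mediator of the DNA damage checkpoint (chr6:30684689-30685832, 1144 bp), with a height of 85 and a total signal of 39043. Its apex lay 124 bp upstream of the MDC1 start. A second peak labelled MDC1, 2737 bp wide and of height 86, lay 1413 bp away with its apex 154 bp upstream of TUBB, and its width kept it out of the members. MTOR, the growth-controlling kinase, followed (chr1:11321974-11323094) with a height of 83 and a total signal of 22053, and its apex lay 177 bp upstream of the start. TIMM44, which helps import proteins into the mitochondrial matrix (chr19:8007960-8009438), had a height of 82 and a total signal of 32131. These peaks were similar in height while their total signals differed, and the peak of MTOR was the narrowest of them at 1121 bp.

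A peak labelled IQCD followed with a height of 77, and the start nearest to its apex was that of TPCN1, an endolysosomal ion channel, 90 bp downstream of it. RUNX1, a regulator of blood cell development, had a height of 74 in an intron (chr21:36423172-36424219), with the apex 2165 bp upstream of the nearest RUNX1 start. Unlike the members above, this apex was far from a start site and had no CCAAT box within 200 bp. The gene had 2 other labelled peaks, of height 48 at 29 bp from a start and of height 47 at 65 bp upstream of another start. NDUFA11, a subunit of respiratory complex I, KHSRP, an RNA-binding protein that promotes mRNA decay, and TOMM40, the channel of the outer mitochondrial membrane, each had a height of 73. MAP3K11 followed with 72, RAB5B and ABHD2 with 71, and SP1, PPM1B and OSBP with 70.

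The remaining 16 of the 30 highest lay between 65 and 69. VCPIP1, a deubiquitinase, BSDC1 and NEU1, a lysosomal sialidase, had a height of 69. ETV5, an ETS factor, SDR39U1 and C2CD3 had 68. CDCA3 and NUMA1, both linked to mitosis, had 67. The peak labelled CDCA3 had its apex 1194 bp upstream of CDCA3, but 333 bp downstream of the USP5 start. RPS6KA1, MTMR4, HCG25, SEC14L1 and AKTIP were among those at 66. JMJD6 and UBALD2 had 65. Of the 30, 18 had at least 2 CCAAT boxes within 200 bp of the apex, 7 had 1 box, and 5 had none (RUNX1, VCPIP1, CDCA3, RPS6KA1 and SEC14L1).

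**Figure D2:**
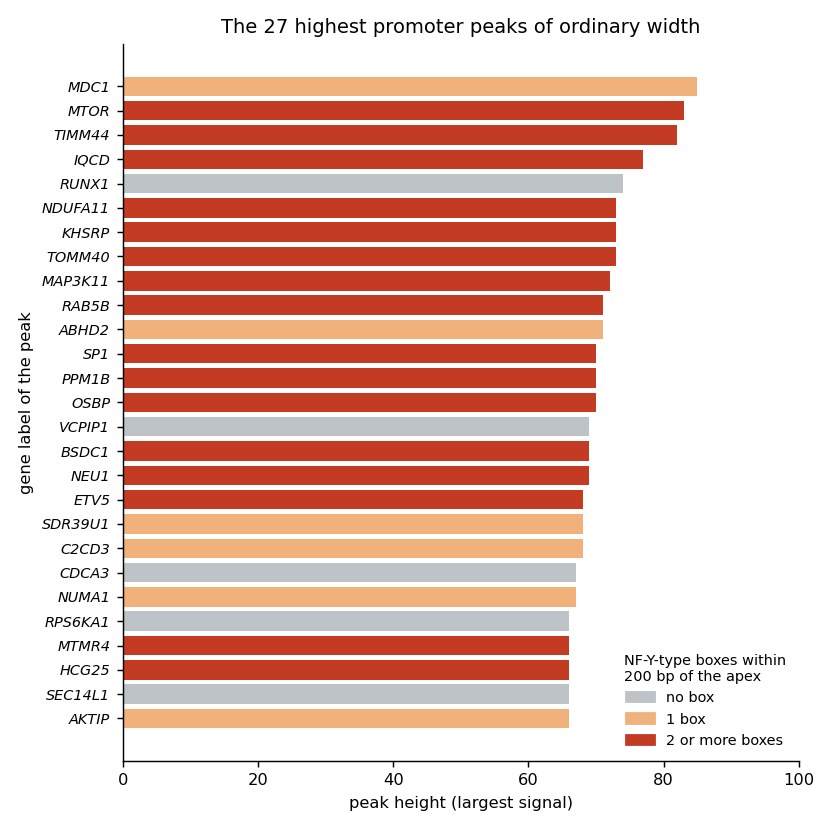
Height (largest signal, horizontal axis from 0) of the 27 highest members by gene label, coloured by the number of CCAAT boxes within 200 bp of the apex. Heights run from 66 at AKTIP to 85 at MDC1, and 16 of the bars have at least 2 boxes.

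PCNA and CASP9 each had 2 member peaks. For PCNA, the sliding clamp of DNA replication, the peak of height 53 (chr20:5099732-5101174) had its apex 183 bp upstream of PCNA. That of height 62 (chr20:5106916-5108707) had its apex 62 bp upstream of CDS2 and 191 bp upstream of another PCNA start. For CASP9, an initiator caspase, the peaks had heights of 61 (chr1:15852669-15854023) and 57 (chr1:15850230-15852440) and were 228 bp apart. In all, 67 member genes had more than 1 labelled peak, and the 74 peaks of these genes that were not members had a median height of 28 and a range of 16 to 86. Another labelled peak of the same gene was present for 20.9% of members and 15.9% of lower peaks, a difference of 4.98 percentage points (0.838 to 9.77).

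The genes were grouped by what their products are known to do, by hand and after the list had been seen, so the classes are a description. They follow the labels, which can name a neighbouring gene. The peak labelled PSMB1, for example, had its apex 2 bp upstream of TBP and 993 bp upstream of PSMB1. Kinases, phosphatases and other signalling proteins took 31 peaks, with MTOR, MAP3K11, GRK6 (height 64), GSK3A (58) and PRKACA (56) among them. Transcription factors and their partners took 30, including SP1 and its relatives SP2 (57) and SP4, the clock gene PER1 (60), STAT3 (57) and the lysosomal regulator TFEB. Another 24 peaks named chromatin and transcription proteins, such as CNOT3 (63), MSL2 (61) and the heterochromatin protein gene CBX5 (56). Mitochondrial proteins had 22 peaks, from import (TIMM44, TOMM40, GRPEL1 at 59) to respiration (NDUFA11, ATP5MC1, SDHB, CYCS).

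Vesicle traffic also had 22 peaks, led by OSBP, an oxysterol-binding lipid carrier. RNA processing had 19 (KHSRP, SRRM1 at 64, SF1 at 62, HNRNPL at 60), ubiquitin and proteolysis 18 (VCPIP1, PSMB1 at 60), and small GTPases and the cytoskeleton 18 (RAB5B, RRAS at 64, RHOA at 58). Labels of noncoding RNAs and pseudogenes had 16, and some of these peaks had a protein-coding start nearest the apex, such as DNM2 for MIR638. Protein folding in the ER and cytosol had 14 (HSPA1B at 63, HSPA8 at 59), and autophagy, lysosome and apoptosis 13. Cell cycle and spindle genes had 13, as did DNA replication and repair. Metabolic enzymes had 12, translation 6, immune-related proteins 4 (STING1, LST1, S100A4 and TNFRSF1A) and nuclear transport 4 (KPNB1, NUP98, NXT1 and XPO1). The other 51 peaks were placed in no class. A CCAAT box within 100 bp was present in 57.3% of all members. Among the classes it was present in 22 of 30 peaks of transcription factors and their partners (73.3%). It was present in 16 of 22 mitochondrial peaks (72.7%) and 4 of 12 metabolic enzyme peaks (33.3%). The extremes were nuclear transport with 4 of 4 and immune-related proteins with 1 of 4. No interval was computed for the classes and their counts are small, so no difference between them is claimed.

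Gene lists matched by symbol were read against the 4.84% of all labelled peaks under 2500 bp that were members. The symbols were those of the peak labels, which can name a neighbouring gene. Members were chosen by height and no allowance was made for the number of lists, so these shares are a description. Kinases and phosphatases had 18 members among 204 peaks, or 8.82% (5.65 to 13.5), an interval above that share. This pattern also caught CDK2AP2, which is no kinase, and without it and similar matches, a correction made after the matches were seen, the count was 17 of 198 peaks or 8.59% (5.43 to 13.3). The corrected count still held genes of phosphatase regulatory subunits, namely PPP1R11, PPP1R12B and PPP1R10. Genes of oxidative phosphorylation had 6 of 57 or 10.5% (4.91 to 21.1), an interval just above it, namely NDUFA11, ATP5MC1, COX14, SDHB, CYCS and NDUFA6. The peak labelled NDUFA11 had its apex 703 bp upstream of that gene, but only 132 bp upstream of another protein-coding start. At a height of at least 45, which 8.41% of all labelled peaks under 2500 bp reached, the kinase interval included that share (11.3%, 7.63 to 16.3), while those of oxidative phosphorylation (19.3%, 11.1 to 31.3) and of chromatin regulators (15.3%, 9.87 to 22.8) lay above it. Surface and secreted immune genes had 1 of 106 or 0.943% (0.167 to 5.15), which was TNFRSF1A. The interval of the immune genes and those of the lists below included 4.84%.

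Chromatin regulators had 9 of 118 members (7.63%), cell cycle genes 6 of 88 (6.82%), microRNA labels 5 of 95 (5.26%) and zinc finger genes 7 of 181 (3.87%). Splicing and RNA-binding proteins had 4 of 97, ubiquitin and proteasome genes 8 of 193, small GTPase genes 6 of 155, long noncoding RNAs 5 of 184 and solute carriers 2 of 115. Translation factors had 3 of 77, or 3 of 71 with the corrected pattern. Cytosolic ribosomal proteins had 3 of 50, but 2 of these were the kinase genes RPS6KA1 and RPS6KA5, and the corrected pattern left RPL27 alone, 1 of 43. Peaks labelled with mitochondrial ribosomal protein genes had 0 of 34, which allows a share of up to 8.82%. The highest with such a label under 2500 bp was MRPL51 at 42. The count holds for labels only. The member labelled ABHD8 (53) had its apex 234 bp upstream of MRPL34. The member labelled APBA3 (50) had it 347 bp downstream of the MRPL54 start. Histone genes matched no peak with the symbols first listed and had 0 of 38 with current symbols, which allows up to 7.89%.

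Among myeloid transcription factors 3 of 45 peaks were members (6.67%), those of RUNX1 (74), STAT3 (57) and LYL1 (51). LYL1, a basic helix-loop-helix factor of blood progenitors, had its apex 67 bp upstream of its start and no CCAAT box within 200 bp. STAT3, a cytokine-activated factor, had its apex 72 bp upstream and 2 boxes. Immediate early genes had 1 of 28, the stress gene GADD45A at a height of 50, with 2 boxes. Genes of AP-1 and stress factors had 1 of 13, NFE2L1 at 54, with 5 boxes. The list of retinoid receptors, PML and their cofactors had 0 of 22, which allows up to 13.6%. Its highest peak under 2500 bp was that of the corepressor gene TLE4 at 42. Wider peaks were not part of these lists.

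Members lay close to start sites, as the promoter label requires, and their apex was within 1 kb of a GENCODE start for 96.97% of them and 95.3% of lower peaks (difference 1.70 points, −0.802 to 3.18). Within 500 bp the difference was 3.95 points (0.753 to 6.18), and within 1 kb of protein-coding starts 3.55 points (0.661 to 5.45), so both of these intervals lay above 0. The apex was upstream of the nearest start in 77.3% of members and 70.9% of lower peaks (6.37 points, 1.43 to 10.7). The median apex was 97 bp upstream in members and 40 bp upstream in lower peaks. It was intergenic in 42.4% and 34.4%, in an intron in 25.5% and 28.4%, and in a 5′ UTR in 22.7% and 24.01%. The symbol was that of the nearest start site in 250 of the 330 peaks (75.8%) and in 79.0% of lower peaks (−3.22 points, −8.22 to 1.202), so a label can name a neighbour. The peak labelled MIR638 had its apex 239 bp upstream of DNM2, and the peak labelled RPPH1 had it 244 bp upstream of PARP2.

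Start sites on opposite strands within 1 kb, a divergent pair, were present at 41.5% of members and 35.9% of lower peaks (5.65 points, 0.327 to 11.2). Within 500 bp the shares were 33.9% and 31.0%, and the interval of the difference included 0 (2.90 points, −2.13 to 8.28). With protein-coding genes alone the shares were 22.4% and 14.4% (8.02 points, 3.76 to 12.9). Another peak of the list lay within 10 kb of 48.5% of members and 33.8% of lower peaks (14.6 points, 9.17 to 20.1), and the median gap to the next peak was 10892 bp against 22236 bp. A window of 200 bp on each side of the apex met the CpG island criteria in 85.2% and 79.3% (5.85 points, 1.496 to 9.42). With stricter criteria the shares were 62.1% and 59.5%, and the interval included 0 (2.66 points, −2.81 to 7.87). The median GC content of these windows was lower in members, at 62.3% against 64.3%.

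The share of members by chromosome was read beside the 4.84% of all labelled peaks under 2500 bp. It is a description, with no allowance for the number of chromosomes. Chromosome 19 held 44 members among 524 labelled peaks under 2500 bp, or 8.40% (6.31 to 11.1), and TIMM44, NDUFA11, KHSRP and TOMM40 were among them. Chromosomes 12, 7 and 17 followed with 7.33% (5.12 to 10.4), 7.03% (4.73 to 10.3) and 7.02% (5.04 to 9.70). The interval of chromosome 7 included 4.84%. Chromosome 10 held 3 of 231, or 1.30% (0.443 to 3.75). Chromosome 18 held 0 of 85, which allows up to 3.53%, and chromosome X 0 of 162, which allows up to 1.85%. The highest labelled peaks of that width were 45 and 48 there.

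A CCAAT box on either strand was present within 200 bp of the apex in 230 of 330 members, 69.7% (64.5 to 74.4), and in 43.1% of lower peaks. The difference was 26.6 points (21.3 to 31.5). In windows 2 kb away the shares were 41.5% and 39.6%. Those windows were poorer in GC, with members' medians of 46.4% and 46.9% on either side against 62.3% at the apex. Of all 15412 peaks 39.6% held a box, as did 39.2% of windows of the same length at 20098 protein-coding promoters. Within 100 bp the shares were 57.3% and 32.4% (24.9 points, 19.4 to 30.2).

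Members also held more boxes each. At least 2 within 100 bp were found in 35.8% of members and 12.4% of lower peaks (23.4 points, 18.3 to 28.7), and at least 3 in 16.7% and 3.62% (13.04 points, 9.38 to 17.5). The peak of SP2 had 9 boxes within 200 bp, the most of any member. These counts of repeated boxes, and the comparisons of CCAAT by height, width and position that follow, were chosen after the difference had been seen.

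**Figure D3:**
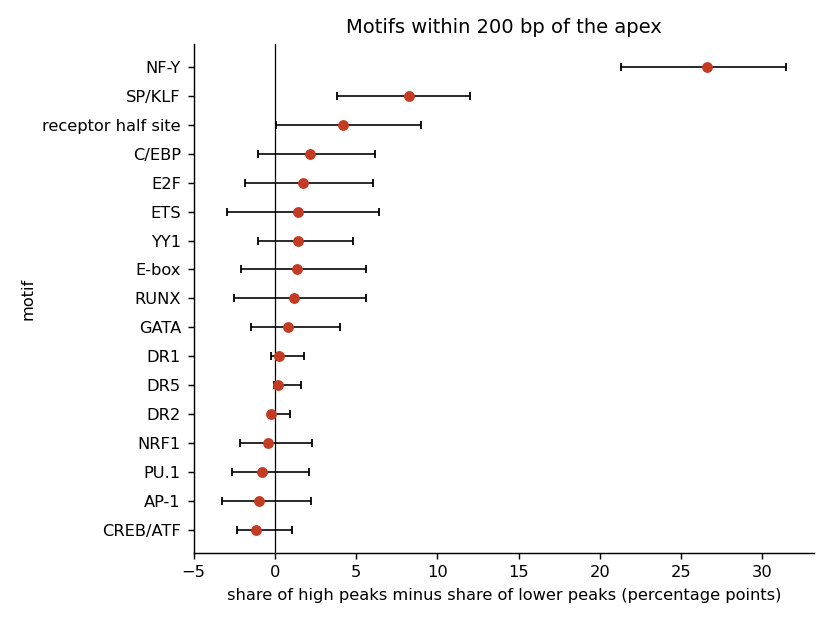
Share of high peaks minus share of lower peaks (percentage points, horizontal axis) holding each motif within 200 bp of the apex, with 95% Newcombe intervals. NF-Y, the CCAAT box, stands at 26.6 points, and the other motifs lie under 10.

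Among the other motifs, all searched on both strands, the GC box GGGCGG of SP and KLF factors was present in 83.9% of members and 75.7% of lower peaks (8.27 points, 3.80 to 12.0) and in 60.3% of promoters. That difference fell to 0.466 points within 100 bp of the apex and to 3.20 when width classes were weighted alike. The nuclear receptor motif AGGTCA was present in 20.6% and 16.4% (4.21 points, 0.0964 to 8.99), in 16.1% of promoters, and in 31.8% of members' GC-poorer windows 2 kb away. That difference was 2.02 points within 100 bp of the apex and 2.60 points at a height of at least 55. Direct repeats of receptor motifs, which contain it in part, were rare at these apices. The repeat with 1 base between its parts (DR1) was found in 2 members (0.606%) and in 0.370% of lower peaks. DR5 was found in 1 member (0.303%) and in 0.0925% of lower peaks, and DR2 in 0 members, which allows a share of up to 0.909%, and in 0.216% of lower peaks.

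For the remaining motifs the intervals of the differences included 0. The ETS motif CCGGAAG was present in 23.6% of members and 22.2% of lower peaks (14.0% of promoters). The motif of PU.1, the ETS factor of myeloid cells, searched as GAGGAAGT, was present in 4.55% and 5.32% (2.85% of promoters). The RUNX motif TGTGGT was present in 16.4% and 15.2% (14.6% of promoters). For AP-1 the letters were TGANTCA, with 6.36% and 7.37% (7.10% of promoters). For C/EBP factors they were TTGCNNAA, with 12.1% and 9.99% (9.92% of promoters). The CREB and ATF motif TGACGTCA stood in 2.12% and 3.28% (2.48% of promoters). The E-box CACGTG stood in 13.9% and 12.6% (9.45% of promoters). For E2F, searched as GCGGGAA, the shares were 15.2% and 13.4% (10.04% of promoters). For YY1, searched as AAGATGGC, they were 7.58% and 6.17% (4.54% of promoters). NRF1, with the palindrome CGCATGCG, had 3.94% and 4.38% (2.71% of promoters). GATA factors, with AGATAA, had 6.36% and 5.58% (9.31% of promoters). The motifs of ETS and PU.1 share a GGAAG core. A match of letters is no evidence of binding by the factor, and a missing match says only that these letters were not in the window.

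The box was set against the other orderings of its 5 letters, 30 in all, a comparison that was not planned. CCAAT had been taken up for its large difference in these same peaks, so its rank among the orderings is a description. CCAAT had the largest difference within 100 bp, followed by CAATC at 20.9 points, which often overlaps it. The other 28 orderings ranged from −2.10 to 6.33 points with a median of 3.06.

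Across all labelled peaks under 2500 bp, the share with a box within 100 bp rose with height, from 23.6% (21.5 to 25.8) of the 1528 peaks at heights of 13 to 19 to 32.6% at 25 to 29, 41.6% at 35 to 39 and 62.7% (50.7 to 73.3) of the 67 peaks at 60 to 85. From 40 to 54 it was nearly level, at 51.4%, 52.7% and 52.4%, so nothing in the share set the height of 50 apart. The share with at least 2 boxes went from 5.89% to 44.8%. In 5 classes of width the members exceeded the lower peaks by 16.7 to 36.1 points, with every interval above 0.

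**Figure D4:**
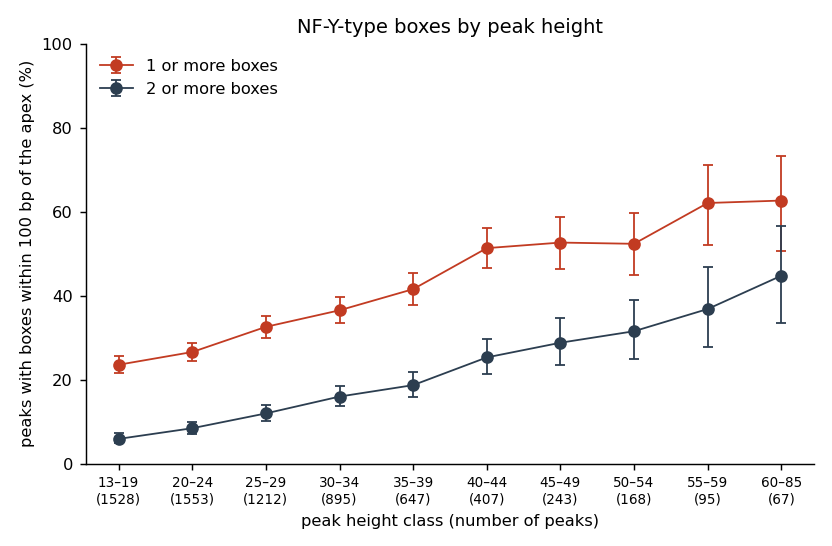
Share of labelled peaks under 2500 bp (percent, vertical axis) with at least 1 (red) or at least 2 (dark) CCAAT boxes within 100 bp of the apex, by class of height, with 95% Wilson intervals and the number of peaks in parentheses. The share with at least 1 box goes from 23.6% in the lowest class to 62.7% in the highest.

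In the wider labelled peaks of a height of 50 or more, 55.9% of 59 had a box within 100 bp (43.3 to 67.8), and wide peaks under 50 had 25.1% of 295. Unlabelled peaks of a height of 50 or more had 21.8% of 316 (17.6 to 26.7), and unlabelled lower peaks 19.6% of 7927. The intervals of these shares overlapped. With at least 2 boxes the unlabelled shares were 6.96% (4.64 to 10.3) and 3.34% (2.97 to 3.76), and these intervals did not overlap.

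Positions of the boxes were compared upstream of the start sites only. In the 200 bp upstream of the nearest start, 59.7% of members and 33.4% of lower peaks had a box (26.3 points, 20.8 to 31.6). In bins of 20 bp, boxes were densest at −100 to −81 bp in members, with 15.5 per 100 peaks, and at −60 to −41 bp in lower peaks, with 8.34. Of 202 pairs of neighbouring boxes in members, 41.1% were 25 to 45 bp apart, and of 1100 pairs in lower peaks 495 (45%) were. The median spacing was 45 bp in members and 41 bp in lower peaks.

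**Figure D5:**
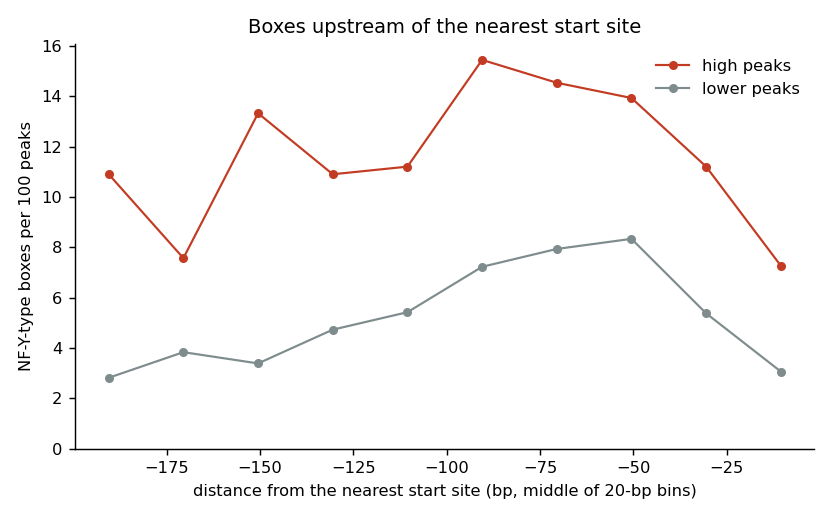
CCAAT boxes per 100 peaks (vertical axis) in bins of 20 bp over the 200 bp upstream of the nearest start site, for the high peaks (red) and the lower peaks (grey). The high peaks lie above the lower peaks in every bin, with 15.5 against 7.23 at −100 to −81 bp.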

How the data were processed

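After Trimmomatic trimming, the authors mapped the Cut&Run reads to hg19 by Bowtie2, discarded duplicates (Samtools) and blacklisted regions (Bedtools), called peaks with SEACR (norm union, paired control) and kept those with an IDR under 0.05 over 2 replicates. They deposited a total signal and a score per peak, the score being the largest signal (height), as read from the values because the column names differ. How replicates were combined, and other normalization, is not given in the sources used here, so depth is unknown. Gene labels are the authors', from UCSC known genes.

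Start sites came from GENCODE release 44 mapped to GRCh37, and sequences from GRCh37 (Python 3.11.15, pandas 2.3.3, pysam 0.24.0). CpG island-like windows had at least 50% GC and an observed over expected CpG ratio of at least 0.6. Shares have Wilson intervals and differences Newcombe intervals. The Wilson formula was checked against a standard implementation, and the coverage of the Newcombe interval on simulated independent counts. The named genes are the 30 highest members, members of the myeloid, immediate early, AP-1 and retinoid lists, genes with 2 or more members, and peaks nearest the limits. Results on some genes are not reported here. Other names are examples chosen after their values were seen. Members and lists were chosen with earlier results of these data known. The symbol patterns of 5 lists were corrected, and the rule for printed sequences changed, after results were seen, and list values use the first patterns unless the text says otherwise.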

Additional observations from a re-analysis of the deposited data

How the results depend on the processing

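The difference in CCAAT share kept its sign and lay between 22.8 and 30.4 points under all its alternatives, which were other windows and heights, width or GC classes weighted alike, apices near start sites, upstream windows and chromosomes left out. The number of members was 573 at a height of at least 45 and 162 at 55, naming 562 and 161 genes. It was 256 and 352 with widths under 2000 and 3000 bp, and 306 with neighbouring peaks merged. The share near a start was 93.9% at 500 bp, 99.4% at 3 kb and 92.1% for the labelled gene's own starts. Stricter CpG criteria gave 62.1%. Another peak lay within 5 kb of 35.8% and within 20 kb of 63.3%. Divergent pairs made up 33.9% at 500 bp and 22.4% among protein-coding genes. The GC difference of −1.995 points became −2.99 within 100 bp, −0.666 within 300 bp and −4.14 with width classes weighted alike. Ranking by total signal kept 165 members. The cause of these shifts was not tested beyond the changed definitions themselves. The kinase share with corrected symbol patterns was 8.59%. Of the 16 other motifs under 112 alternatives, 5 values moved beyond their interval. The GC box and AGGTCA, whose main intervals lay above 0, kept their sign under every alternative. Several motifs whose main interval included 0 changed sign, such as ETS, from 1.42 points to −1.38 within 100 bp.

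No paired analysis was possible because the deposited values are not given per replicate, and leaving out a replicate was not possible for the same reason. Depth is unknown, so it sets no limit that is stated here.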
